A study of Homo sapiens with 6 samples.

Results

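Strong FOSL2 regions without JUNB are stretches of chromatin where the deposited FOSL2 list gave a fold enrichment of at least 8.7 and where no base was shared with any listed JUNB region. Fold enrichment is the FOSL2 signal at a region divided by the background, as the authors' peak caller gave it. On the autosomes, 2805 of 73751 FOSL2 regions met this rule. They made up 19.4% of the 14496 regions at or above that fold enrichment, and the other 11691 shared at least 1 bp with a JUNB region. Over FOSL2 regions of any fold enrichment, 58.6% had no JUNB region, and among the 59255 regions under 8.7 the share was 68.2%. These shares follow from the values used to choose the regions and carry no test.

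The cells were HaCaT, an immortal line that arose spontaneously from human skin keratinocytes, grown without any treatment named in the labels. The 6 libraries were 3 for FOSL2 and 3 for JUNB, immunoprecipitated with a different antibody for each factor and prepared by ChIPmentation, in which a transposase inserts the sequencing adapters into the captured chromatin. Each factor had a single deposited list for its 3 libraries, so no value per library, no spread between replicates and no sequencing depth could be given. Regions of a list are not replicates, and the tests below cover counting error within these lists only. Expression was not measured in these files, so the cell type is as labelled and was not checked against markers.

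FOSL2 and JUNB are bZIP proteins that bind DNA as dimers known as AP-1. FOS-family proteins such as FOSL2 do not form stable homodimers and bind DNA with a JUN-family partner, which can be JUN, JUNB or JUND. AP-1 dimers recognise the palindrome TGANTCA, and in epidermis they act at enhancers of genes for proliferation, differentiation and barrier formation. JUN and JUND were not mapped here.

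Sequence was available in RefSeq promoter windows of GRCh38.p14, which run from 250 bases before to 50 bases after 1 listed start per gene. That start can lie inside the gene, downstream of the gene's outermost first base. Of the 2805 regions, 41 had their summit, the base of highest FOSL2 signal, in such a window. In 32 of these 41 windows the listed start was at most 1000 bp from the outermost first base of the gene, and in the other 9 it lay farther inside the gene. Of the 41 windows, 27 held TGANTCA, and in 12 of the 41 it was centred within 25 bp of the summit. The stretches below are examples from these 12, 61 bases each with the summit at base 31. They are printed 5′ to 3′ on the strand of the gene, credited to RefSeq, with the AP-1 site in capitals; because the motif is palindromic, a match on one strand is a match on both.
ANKRD17: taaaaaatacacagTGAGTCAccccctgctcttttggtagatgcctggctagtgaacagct
TRIM5: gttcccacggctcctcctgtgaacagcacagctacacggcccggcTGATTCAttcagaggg
TTC39C: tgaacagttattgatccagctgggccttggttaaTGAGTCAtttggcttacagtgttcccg
ZSCAN9: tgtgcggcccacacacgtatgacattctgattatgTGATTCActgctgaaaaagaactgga
TBC1D1: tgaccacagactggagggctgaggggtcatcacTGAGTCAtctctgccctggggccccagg
GLI2: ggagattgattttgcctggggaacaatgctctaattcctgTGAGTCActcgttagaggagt
EIF4G1: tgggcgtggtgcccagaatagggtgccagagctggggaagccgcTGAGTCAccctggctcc

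ANKRD17, which encodes an ankyrin repeat protein, had the highest FOSL2 fold enrichment of the 41 at 14.8, with a −log10 p of 139, and the nearest JUNB region was 152413 bp away. Its stretch lies at chr4:73223149-73223209 on the minus strand, before a start that is 35741 bp inside the gene, and the AP-1 site is centred 13 bp from the summit. TRIM5, a restriction factor against retroviruses, had a fold enrichment of 11.5 just before the outermost start of the gene (chr11:5685153-5685213, minus strand), with the site 18 bp from the summit and the nearest JUNB region 62865 bp away. ZSCAN9, a zinc finger gene, had 10.2, also before its outermost start, with the site 8 bp from the summit (chr6:28225099-28225159, plus strand).

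The other 4 stretches lie before starts inside their genes, and exons and introns were not separated here. TTC39C had a fold enrichment of 10.3 at a start 120440 bp inside the gene, with the site 7 bp from the summit (chr18:24113219-24113279, plus strand). TBC1D1, which encodes a Rab GTPase-activating protein, had 8.99 at a start 228870 bp inside, with the site 6 bp away (chr4:38119852-38119912, plus strand). GLI2, a transcription factor of Hedgehog signalling, had 8.94 at a start 56413 bp inside, with the site 13 bp away (chr2:120792071-120792131, plus strand). EIF4G1, the scaffold of the translation initiation complex, had 8.78 at a start 5657 bp inside, with the site 17 bp away (chr3:184320187-184320247, plus strand). At 4604 bp, its nearest JUNB region was the closest among these 7 genes.

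In 14 of the 41 windows no TGANTCA was present. The stretches at XPC, which recognises damage in nucleotide excision repair and shares its promoter with LSM3, at ZNF764, a zinc finger gene, and at NF2, which encodes the tumour suppressor merlin, all before the outermost start of the gene, are shown as examples. No match says only that these letters are not in the window.
XPC: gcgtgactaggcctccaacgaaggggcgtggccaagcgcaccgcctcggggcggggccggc
ZNF764: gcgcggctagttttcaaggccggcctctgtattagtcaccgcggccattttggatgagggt
NF2: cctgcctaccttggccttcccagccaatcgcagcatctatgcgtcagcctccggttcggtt

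These 3 regions had FOSL2 fold enrichments of 10.0089 at XPC (chr3:14178630-14178690, minus strand), 10.6 at ZNF764 (chr16:30558484-30558544, minus strand) and 9.15 at NF2 (chr22:29603427-29603487, plus strand). Their −log10 p values were 74.4, 134 and 77.5, within the range of the 7 regions printed above (47.6 to 164).

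An AP-1 site was present in 27 of 41 promoter windows of strong regions without JUNB (65.9%, 95% Wilson interval 50.6 to 78.4%) and in 182 of 230 windows of strong regions with JUNB (79.1%, 73.4 to 83.9%). The share was 19.1% for weaker FOSL2 regions without JUNB, 26.1% for all FOSL2 regions and 7.67% for all 33725 autosomal RefSeq windows. The odds ratio between strong regions without and with JUNB was 0.510 (95% interval 0.236 to 1.14), which did not pass the threshold of 0.05 (Fisher's exact test, two-sided, p = 0.0708, 0.142 after Benjamini-Hochberg adjustment over 4 tests). In windows with a start at most 1000 bp from the outermost first base, the shares were 65.6% of 32 without JUNB and 79.4% of 189 with JUNB. The difference passed unadjusted in 2 of the alternatives given in the closing section, with odds ratios of 0.433 and 0.368. Where a site was present, its centre was a median of 31 bp from the summit without JUNB (quartiles 13.5 and 43.5) and 24 bp with JUNB (14 and 39). The site lay within 50 bp of the summit in 53.7% of the windows without JUNB and 67.4% of those with JUNB. Some windows end close to the summit, so a site beyond the window was not counted here or in the shares above. In windows that held the full 50 bp on each side of the summit, the shares were 61.8% of 34 without JUNB and 67.8% of 180 with JUNB. Median GC content was 52.7% in windows of regions without JUNB, 56.5% with JUNB and 58.7% over all RefSeq windows.

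**Figure D1:**
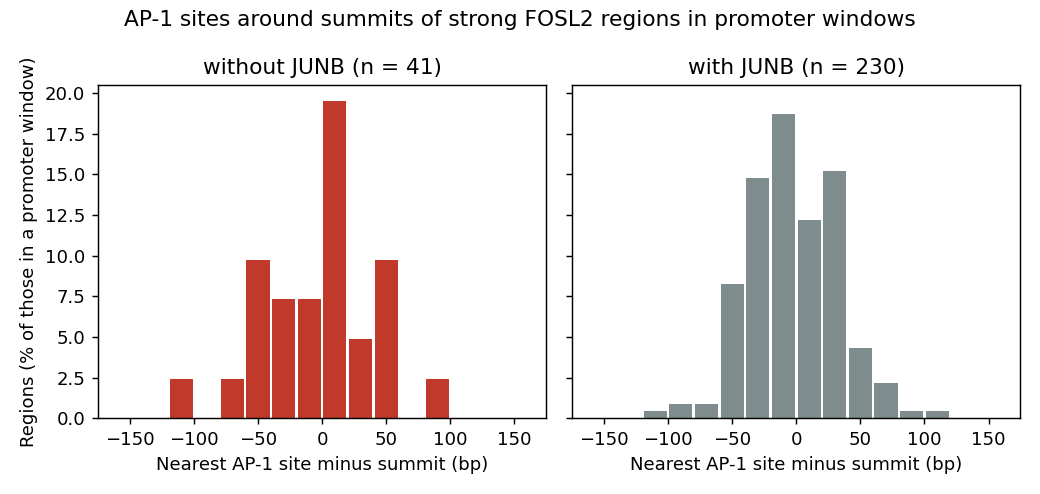
Position of the nearest AP-1 site relative to the FOSL2 summit, in bp along the gene's strand, for strong regions without JUNB (left, n = 41 windows) and with JUNB (right, n = 230); bars are percent of all windows of the class in bins of distance, and windows without a site add nothing. Sites lie on both sides of the summit in both panels, with median distances of 31 bp without JUNB and 24 bp with JUNB.

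Other motifs were counted in the same windows on both strands and are given as descriptions without a test. GGAATG, the letters bound by TEAD factors, was in 13 of 41 windows without JUNB (31.7%), against 19.6% of windows with JUNB and 14.04% of all RefSeq windows. TGACGTCA, the cyclic AMP response element, was in 0 of 41 windows without JUNB, against 3.91% with JUNB and 1.87% of all windows. TGTGGT, bound by RUNX factors, was in 9.76% without JUNB, 16.1% with JUNB and 13.1% of all windows. CCGGAA, bound by ETS factors, was in 14.6%, against 21.7% with JUNB and 17.3% of all. GGGCGG, bound by SP and KLF factors, was in 39.0% without JUNB, 37.8% with JUNB and 45.0% of all. AACNNGTT, bound by grainyhead-like factors, was in 1 window without JUNB (2.44%), against 4.78% with JUNB and 3.53% of all windows. TGANTCA shares no complete match with TGACGTCA, and none of these motifs contains another.

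The regions without JUNB had lower −log10 p than those with JUNB, although both were chosen at the same minimum of fold enrichment. Median FOSL2 fold enrichment was 9.81 without JUNB (quartiles 9.17 and 10.8, highest 21.1) and 10.2 with JUNB (9.41 and 11.1, highest 38.5). Median −log10 p, which depends on the number of reads as well as on their ratio to background, was 79.1 without JUNB (62.3 and 105.0) and 123 with JUNB (94.1 and 157). Over all FOSL2 regions it was 30.5, which every strong region of both classes exceeded. The lowest had 45.4 without JUNB and 45.6 with JUNB. Median width was 893 bp without JUNB (765 and 1038, range 159 to 1884), against 1013 bp with JUNB (879.5 and 1158, range 147 to 2041) and 643 bp for all FOSL2 regions. All of these values come from the lists and the contrast that chose the regions, so they are given without a test.

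The gap in −log10 p was present at every level of fold enrichment. Between 8.7 and 9, the median was 60.4 in 486 regions without JUNB and 95.7 in 1212 with JUNB. Between 9 and 10 it was 71.1 in 1112 regions without JUNB and 109.6 in 4037 with JUNB. Between 10 and 11 it was 86.4 without JUNB and 127 with JUNB. At 14 and over it was 130.8 in 43 regions without JUNB and 159 in 192 with JUNB. Width differed in the same direction up to 14 (842.5 and 987 bp in the lowest bin), but at 14 and over the medians were 875 bp without JUNB and 841.5 bp with JUNB.

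**Figure D2:**
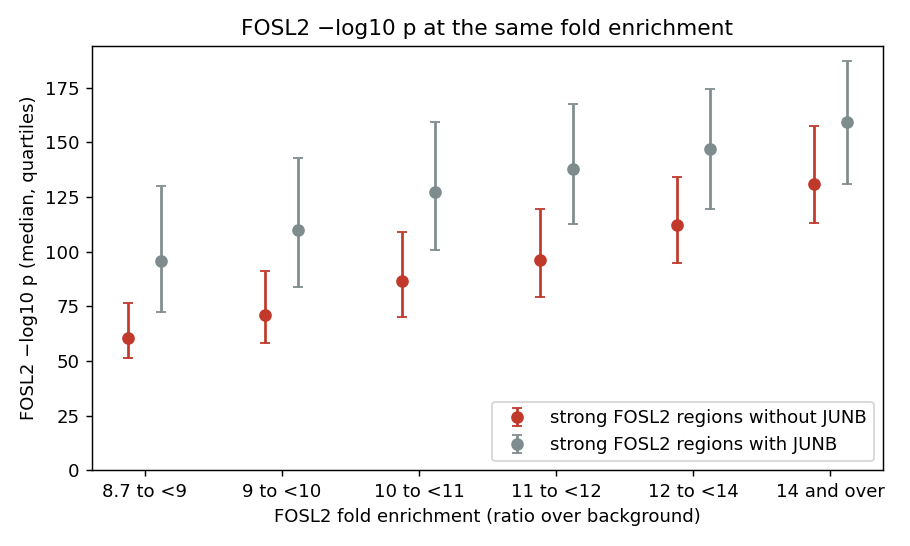
FOSL2 −log10 p (median, bars from the lower to the upper quartile) of strong regions without JUNB (red, left in each pair) and with JUNB (grey, right) in bins of FOSL2 fold enrichment. In each bin the median without JUNB is the lower one, from 60.4 against 95.7 in the lowest bin to 130.8 against 159 in the highest.

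Ranked by −log10 p, the 14496 strong regions held fewer regions without JUNB in each successive decile. In the lowest decile, with −log10 p between 45.4 and 65.3, 832 of 1451 regions had no JUNB region (57.3%). The share was 37.2% in the next decile, 15.5% in the fifth and 2.69% in the highest, where 39 of 1450 regions had none. Ranked by width, it was 38.1% among the narrowest and 11.8% among the widest. Ranked by fold enrichment it was 27.7% in the lowest decile and 15.6% in the highest, so among regions chosen by fold enrichment the rank by −log10 p separated the classes more than the rank by fold enrichment did.

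**Figure D3:**
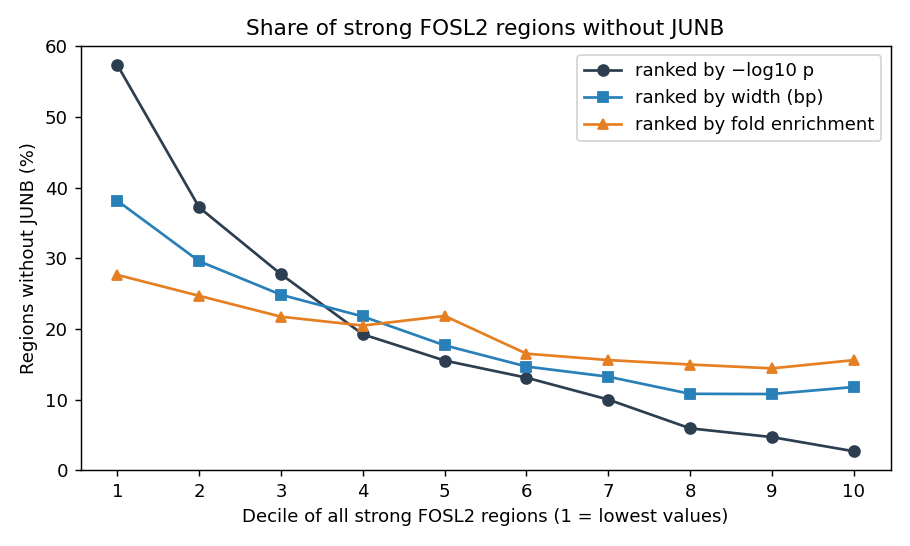
Percent of strong FOSL2 regions without JUNB in each decile of all 14496 strong regions, ranked by −log10 p (dark circles), width (blue squares) or fold enrichment (orange triangles), lowest values at the left. The line for −log10 p spans 57.3% to 2.69%, that for fold enrichment 27.7% to 15.6% between its end deciles.

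The 39 regions without JUNB in the highest decile of −log10 p were singled out after their values were seen. TNFRSF21, a death receptor gene, was the nearest protein-coding gene, at 42698 bp, to the first of them (chr6:47188052-47189326), with a fold enrichment of 12.9 and a −log10 p of 260, and a JUNB region lay 6797 bp away. The next were a region of 14.8 and 258 inside UBE2L3, 4676 bp from an end of RIMBP3C, whose promoter window is copied elsewhere, and one of 15.3 and 253 whose nearest protein-coding gene, NPIPB11, was 115724 bp away. LAMA3, the alpha chain of the laminin that anchors basal keratinocytes, held a region of 9.61 and 207 inside the gene (chr18:23827514-23829201), 15651 bp from JUNB. NUCKS1, a nuclear DNA-binding protein, held one of 11.2 and 224. SLCO3A1, an organic anion transporter, held one of 9.41 and 217. FZD1, a Wnt receptor gene, was the nearest gene to one of 10.5 and 203, although 286876 bp away. SPRR2E, a small proline-rich precursor of the cornified envelope, was nearest to one of 9.34 and 196 at 5965 bp. Median fold enrichment over the 39 was 11.1, against 10.7 in the 1411 regions with JUNB in the same decile, and a median width of 1285 bp, against 1209 bp. The nearest gene had a copied promoter window, as defined further on, for 2 of 31 of these regions without JUNB that could be assessed (6.45%) and for 8 of 1138 with JUNB (0.703%). Summits lay in pseudogenes in 2 of the 39 (5.13%) and in 1.70% of the 1411. JUNB regions were within 10 kb of 8 of the 39 (20.5%), and JUNB regions other than the overlapped one were within 10 kb of 38.1% of the 1411.

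The share without JUNB differed between chromosomes. Chromosome 4 had the highest, with 318 of 1004 strong FOSL2 regions (31.7%, 95% Wilson interval 28.9 to 34.6%), followed by chromosome 6 with 272 of 1043 (26.1%, 23.5 to 28.8%) and chromosome 22 with 66 of 262 (25.2%, 20.3 to 30.8%). Chromosome 16 had the lowest with 45 of 387 (11.6%, 8.80 to 15.2%), next to chromosome 17 with 57 of 472 (12.1%, 9.44 to 15.3%). Off chromosomes 4 and 6 the share was 17.8%. The rule that chose the regions sets this share, and the chromosomes were named by its order, so no test between chromosomes was made. The intervals cover counting error only.

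Chromosomes with more regions lacking JUNB also had lower FOSL2 −log10 p. The median −log10 p of strong regions was 92.3 on chromosome 4, 104 on chromosome 6, 129 on chromosome 16 and 128 on chromosome 17. Across the 22 autosomes, which share the same libraries, Pearson's r between that median and the share without JUNB was −0.88 and Spearman's rho −0.81, and without chromosomes 4 and 6 they were −0.79 and −0.76. That median includes the regions without JUNB, whose −log10 p is lower, so part of this relation is built in. With the median of strong regions with JUNB only, r was −0.85 and rho −0.77. Without chromosomes 4 and 6 these were −0.74 and −0.69. This median too is over a class set by the rule, and the share is the rule's own outcome. The coefficients are therefore descriptions of the lists and carry no test. Chromosome 4 also had the largest part of its FOSL2 regions at or above 8.7 (32.3%) and the fewest JUNB regions per FOSL2 region (0.386). Chromosome 19 had the most (0.648), with 19.8% of its strong FOSL2 regions without JUNB. Across the 22 autosomes, r between this ratio and the share without JUNB was −0.68 and rho −0.62. With chromosomes 4 and 6 left out they were −0.39 and −0.49, again as descriptions. Within deciles of −log10 p, the share without JUNB on chromosome 4 was above that of the other autosomes in 9 of 10 deciles, and on chromosome 6 also in 9 of 10. In the lowest decile the shares were 59.5% on chromosome 4, 62.9% on chromosome 6 and 56.0% on the other autosomes, and in the next decile 50.7%, 36.2% and 35.7%.

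**Figure D4:**
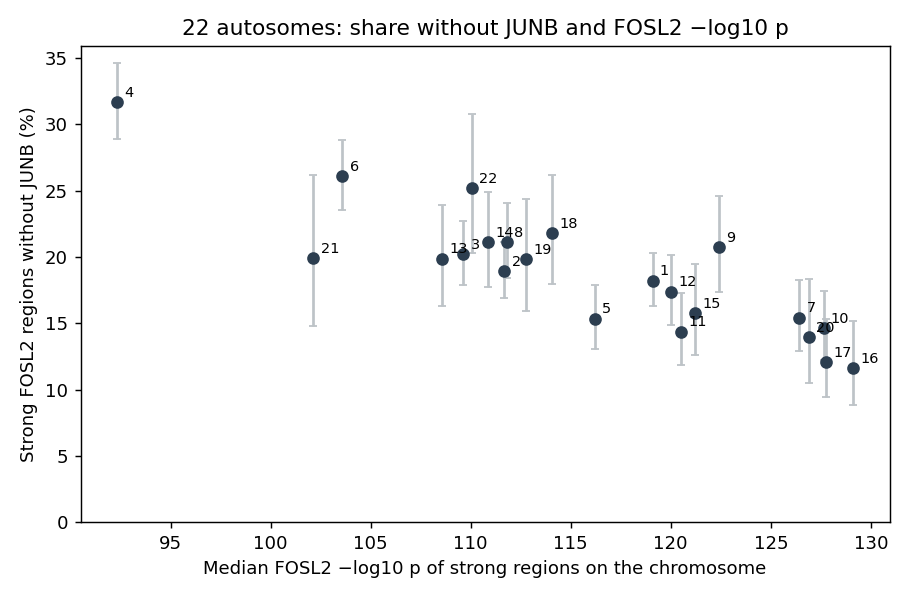
Percent of strong FOSL2 regions without JUNB on each of 22 autosomes (numbered points, bars are 95% Wilson intervals) against the median FOSL2 −log10 p of strong regions on the chromosome. Chromosome 4 is at the upper left with 31.7% and 92.3, and chromosome 16 at the lower right with 11.6% and 129. The median is over strong regions with and without JUNB together.

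Apart from those overlapped, JUNB regions were seldom next to strong FOSL2 regions of either class. Values for the regions without JUNB come first. The gap to the nearest JUNB region had a median of 27265 bp (quartiles 11873 and 66335, range 73 to 2831769 bp). It was at most 1 kb for 46 regions (1.64%), between 1 and 10 kb for 544 (19.4%), between 10 and 100 kb for 1756 (62.6%) and over 100 kb for 459 (16.4%). For regions with JUNB, the nearest JUNB region other than those overlapped was a median of 18021 bp away. It was at most 1 kb away for 2.00% of them, between 1 and 10 kb for 29.4% and over 100 kb for 8.55%. Other FOSL2 regions were a median of 13334 bp from those without JUNB and 10106 bp from those with JUNB. Regions of the class without JUNB were spread out, with a median of 244147 bp to the next one, 52 of them (1.85%) within 10 kb of another and 0 within 1 kb. For weaker FOSL2 regions without JUNB, the gap to the nearest JUNB region had a median of 18066 bp and was at most 1 kb for 4.77%. The rule itself sets the smallest of the gaps to JUNB, so no test was made.

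**Figure D5:**
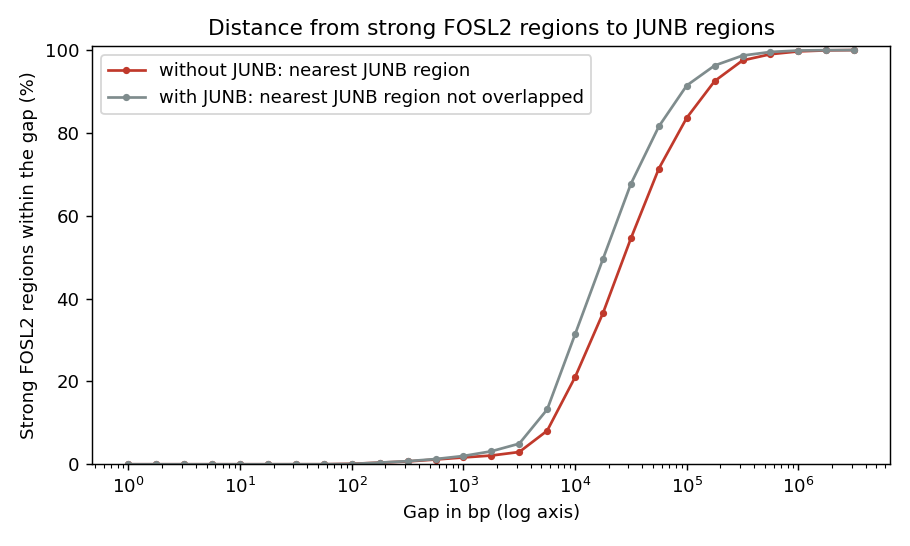
Cumulative percent of strong FOSL2 regions with a JUNB region within a given gap (log axis, bp), for regions without JUNB (red) and, for regions with JUNB (grey), counting only JUNB regions they do not overlap. The red line lies to the right, with medians of 27265 bp without JUNB and 18021 bp with JUNB.

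The JUNB regions nearest to those without JUNB were of ordinary strength for their list. Their median JUNB fold enrichment was 5.10, against 4.77 for all 39317 JUNB regions, and 80.5% of them lay on a FOSL2 region, against 78.3% of all JUNB regions. For the 46 regions with JUNB within 1 kb, the median JUNB fold enrichment was 3.93, and 31 of the 46 JUNB regions overlapped another FOSL2 region. The nearest gaps were 73 bp beside H4C3, a histone H4 gene (FOSL2 fold enrichment 9.67), 96 bp inside ZFAND6 (9.58), 98 bp in the overlapping noncoding genes CYTOR and NCAL1 (9.74), 124 bp inside TYW1B (11.7) and 139 bp inside LOC102724624 (9.95). The regions in CYTOR and LOC102724624 were 165 and 176 bp wide. Their nearest protein-coding genes were LOC124907854 at 117914 bp and GRAPL at 34039 bp, both with promoter windows that are copied elsewhere in the RefSeq table.

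The 5 regions farthest from JUNB lay in 3 stretches of the genome with no listed JUNB region. CHL1, a neural cell adhesion molecule of the L1 family, held a FOSL2 region of 9.67 at chr3:293948-294929 with the nearest JUNB region 2831769 bp away. CNTN6, a contactin gene in the same stretch, held one of 13.4 at 2008024 bp. PCDH9, a protocadherin, held 2 regions of 9.23 and 10.7, at 1727565 and 1705933 bp. The last of these 5 had 10.1 and was 1351661 bp from JUNB, with CDH11, a cadherin gene, as the nearest protein-coding gene at 1329862 bp.

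Place relative to protein-coding genes was not used to choose the regions and was tested. The summit was within 1000 bp of a gene end in 104 of 2805 regions without JUNB (3.71%, 95% Wilson interval 3.07 to 4.47%) and 456 of 11691 with JUNB (3.90%, 3.56 to 4.27%), against 6.81% of all FOSL2 regions. The odds ratio was 0.949 (95% interval 0.756 to 1.18; Fisher's exact test, p = 0.663, adjusted 0.663). The interval spans differences in either direction, so no equality is shown. The summit was inside a gene, over 1000 bp from its ends, in 1340 regions without JUNB (47.8%) and 5502 with JUNB (47.1%), against 46.4% of all FOSL2 regions, with an odds ratio of 1.03 (0.947 to 1.12, p = 0.5005, adjusted 0.663, Fisher's exact test).

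Regions without JUNB were more often far from protein-coding genes. The summit was outside these genes and over 100 kb from any of their ends in 550 regions without JUNB (19.6%, 18.2 to 21.1%) and 1998 with JUNB (17.1%, 16.4 to 17.8%), against 16.3% of all FOSL2 regions. With all annotated genes in place of protein-coding genes, the shares were 2.75% without JUNB and 1.60% with JUNB. For protein-coding genes the odds ratio was 1.18 (1.06 to 1.32, Fisher's exact test, p = 0.00180, adjusted 0.00721). In regions of both classes with −log10 p between 65 and 130, an alternative chosen after seeing the data, the shares were 19.2% without JUNB and 18.6% with JUNB and the odds ratio was 1.04 (p = 0.547, Fisher's exact test), so the call did not hold there. The median number of protein-coding genes within 500 kb was 5 without JUNB and 6 with JUNB. The longest gene around a summit had a median length of 168582 bp without JUNB and 146856 bp with JUNB. These medians were not tested.

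Of regions near a gene end where the promoter table gives the gene's strand, the end was the first base of the gene in 59 of 84 without JUNB (70.2%) and 261 of 367 with JUNB (71.1%), against 80.9% over all FOSL2 regions. The 10 of highest fold enrichment among the 104 were led by a region 322 bp from the last base of FGF2, a fibroblast growth factor gene, where the region lies inside the overlapping gene NUDT6 (14.2; chr4:122898194-122898979). It was followed by ASAH2B (13.1, 597 bp from its first base, inside the gene) and GLO1, which encodes glyoxalase I (12.8, 62 bp before its first base, with an AP-1 site 31 bp from the summit). LY6K, a gene of the LY6 family of surface proteins, had 12.6 with the summit 199 bp from an end. NUP43, a nucleoporin gene, had 12.3 with a JUNB region 4955 bp away. KRTAP4-7, a hair keratin-associated protein whose promoter window is copied in related genes, also had 12.3. KCNK10, a potassium channel gene, had 12.2, DHX30, an RNA helicase gene, 12.1, CSNK1E, casein kinase 1 epsilon, 12.1, and RIPOR2 11.98. The gap to JUNB over these 10 was between 4955 and 117455 bp.

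Some of the 12 highest fold enrichments without JUNB lay in pseudogenes or had a nearest gene with close copies. The highest, 21.1, was at chr22:22269994-22270587 in the immunoglobulin lambda locus, with VPREB1 the nearest protein-coding gene at 24975 bp and a JUNB region 27764 bp away. Next were a region of 17.5 inside ACTR3C with LRRC61 as the nearest gene end, one of 17.0 in the pseudogene ANKRD20A11P with LIPI as the nearest protein-coding gene at 138750 bp, one of 16.9 at 33780 bp from ZNF473, and one of 16.7 that lay 358827 bp from NR4A2, an orphan nuclear receptor gene. A region 7312 bp from RABL2B had 16.4 and lay in the pseudogene RPL23AP82, and the RABL2B promoter window is copied elsewhere. The other 6 of the highest 12 were inside DCAF10 (16.0), TUBB8 (15.8), GPR89B (15.7, 256 bp wide) and WASHC2A (15.0), and outside protein-coding genes with LOC124907867 (15.3, 246857 bp) and NPIPB11 (15.3, 115724 bp) as the nearest. NPIPB11 belongs to a family of near-identical copies, and its region had a −log10 p of 253 and a JUNB region 7770 bp away.

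Genes with copied promoter windows were counted in both classes of strong regions, without a test. A nearest gene whose promoter window shared at least 50% of its 25-base words with another gene's window was found for 4 of 33 regions without JUNB at fold enrichments of 14 and over (12.1%) and 21 of 149 with JUNB (14.1%). Over all strong regions the shares were 1.21% without JUNB (27 of 2239) and 0.778% with JUNB (73 of 9384). At fold enrichments between 8.7 and 9 they were 0.506% without JUNB and 0.409% with JUNB, and between 9 and 10 they were 0.686% without and 0.590% with JUNB. Between 10 and 11 they were 1.55% without JUNB (8 regions) and 0.550% with JUNB. Between 11 and 12 they were 1.17% without (3 regions) and 0.386% with JUNB, and between 12 and 14 they were 2.44% without (4 regions) and 0.963% with JUNB. In regions under 400 bp they were 10 of 26 without JUNB (38.5%) and 34 of 74 with JUNB (45.9%). Summits inside pseudogenes made up 48 regions without JUNB (1.71%) and 140 with JUNB (1.20%). At fold enrichments of 14 and over they made up 4 of 43 regions without JUNB (9.30%) and 19 of 192 with JUNB (9.90%). Reads from near-identical copies can be placed at either copy, and the part of this in the narrow regions was not tested.

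The 3 widest regions without JUNB were 1884 bp wide at 8643 bp from PRKCH, a protein kinase C expressed in differentiating keratinocytes (fold enrichment 9.92), 1852 bp wide at 24034 bp from AHCY, S-adenosylhomocysteine hydrolase (8.98), and inside SHROOM3, a regulator of apical constriction (1838 bp, 9.58). The 3 narrowest were inside FAM72A at 6741 bp from SRGAP2 (159 bp, 11.1), at 198851 bp from ZNF658 (160 bp, 9.83) and inside POTEB3 (160 bp, 10.2), of which SRGAP2 and POTEB3 have copied promoter windows. At the threshold of 8.7, the regions without JUNB just inside it had 8.70021, 223714 bp from OPRM1, 8.70335, 63758 bp from EPS8L3, and 8.70406, inside LAMA4. Those just outside it had 8.69906, 402406 bp from RPS24, and 8.6985 in 2 regions, 969970 bp from ACVR2A and 167412 bp from KCNA4, each the nearest protein-coding gene.

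The 2805 regions were nearest to 2171 protein-coding genes, of which 1731 had 1 of them and 440 had more. Of the 2171 genes, 1360 (62.6%) were also nearest to a strong region with JUNB. The share of all protein-coding genes nearest to such a region was not computed, so this count has no background beside it. ZEB2, a repressor in epithelial-mesenchymal transition, had the most, with 7 regions without JUNB and 7 with JUNB. The 7 without JUNB had fold enrichments between 9.50 and 12.1 and lay between 2404 and 1277789 bp from an end of the gene. The next 6 genes were tied at 6 regions without JUNB. These were FLRT2, an axon guidance protein (7 with JUNB), GMDS, an enzyme of GDP-fucose synthesis (3), LRRC7 (7), NR2F1, an orphan nuclear receptor (7), PIK3C3, a class III phosphatidylinositol kinase (9), and STPG2 (3). GMDS and STPG2 held 5 and 4 of their 6 regions within the gene, and these genes are 621800 and 702228 bp long.

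Of 19122 autosomal protein-coding genes, 798 had a strong region without JUNB within 10 kb of an end (4.17%), and 3264 had one with JUNB (17.1%). Both kinds were near 120 genes, which are 15.0% of the 798 and 3.68% of the 3264. In 9 gene lists for AP-1, keratinocyte layers and signalling, 4 of 211 genes had a region without JUNB (1.90%) and 44 had one with JUNB (20.9%). In 5 lists for other cell types, 3 of 84 had a region without JUNB (3.57%) and 14 with JUNB (16.7%). No set test was made, and the lists were chosen with earlier results of these data known.

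Within these lists and within 10 kb of a gene end, the 4 keratinocyte genes with a strong region without JUNB were DSC3, KLK7, SPRR2A and SPRR2D. DSC3, a desmosomal cadherin of the lower epidermis, had a region with a fold enrichment of 12.1 and a −log10 p of 203 at chr18:30986891-30988136, 1744 bp outside the gene, with the nearest JUNB region 18920 bp away. KLK7, a protease that acts in shedding of the cornified layer, had one of 9.93 at 8020 bp, beside 1 strong region with JUNB in the same span. SPRR2A and SPRR2D, small proline-rich proteins of the cornified envelope, shared 1 region of 10.2 at 9466 and 5534 bp, 11520 bp from JUNB. In the other 7 lists no gene had a strong region without JUNB within 10 kb of an end, although LAMA3, of the basal layer list, held the region described above farther inside. The counts within 10 kb were 0 of 21 genes of AP-1 and related bZIP proteins (5 with a strong region with JUNB), 0 of 20 of the basal layer (2 with JUNB) and 0 of 20 for stress keratins and wound repair (5 with JUNB). They were also 0 of 24 for the EGF receptor and MAPK response (6 with JUNB), 0 of 19 for YAP and TEAD genes (3 with JUNB), 0 of 28 for keratinocyte inflammation (9 with JUNB) and 0 of 23 for the TGF-beta pathway (2 with JUNB). Within 50 kb, between 1 and 3 genes of each of the 7 lists had a strong region without JUNB, and between 10 and 17 had one with JUNB. Over all 19122 genes, 14.8% had a strong region without JUNB within 50 kb. The same share for regions with JUNB was not computed. Within 10 kb, the suprabasal list had 2 of 30 genes without JUNB and 8 with JUNB, and the cornified envelope list 2 of 27 without JUNB and 4 with JUNB.

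Among markers of other cell types, TYRP1, a melanosome enzyme, had a region of 14.3 inside the gene, 1564 bp from an end and 29789 bp from JUNB. COL6A1, a collagen of fibroblasts, had one of 11.2 at 287 bp outside the gene, with JUNB 105481 bp away. IL7R, a T cell cytokine receptor, had one of 9.74 at 4686 bp beside 2 strong regions with JUNB. Each was the only such gene of its list within 10 kb. The counts were 1 of 14 melanocyte genes (2 with a strong region with JUNB), 1 of 18 fibroblast genes (1 with JUNB) and 1 of 17 T cell genes (4 with JUNB). The hepatocyte list had 0 of 18 genes without JUNB and 3 with JUNB, and the neuron list 0 of 17 without JUNB and 4 with JUNB. Over all protein-coding genes the shares were 4.17% without JUNB and 17.1% with JUNB. Of the housekeeping genes, PPIA, a cyclophilin, had a region of 8.77 at 8169 bp. TUBB, a beta tubulin, had one of 9.41 at 5666 bp beside 1 strong region with JUNB. The housekeeping list thus had 2 of 18 genes without JUNB and 5 with JUNB.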

How the data were processed

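FOSL2 and JUNB were mapped in 6 HaCaT libraries, 3 per factor. Per the submitters' processing notes, Bowtie2, SAMtools 1.8, Picard 1.89, MACS2, deepTools and hg38 were used. The control, the thresholds and how libraries were merged were not given in the sources used here. The deposited lists give, as the authors' values, a fold enrichment (a linear ratio), −log10 p and −log10 q, a score equal to 10 times the −log10 p to within 1, and a summit offset.

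From 75704 FOSL2 and 40061 JUNB rows, 1953 and 744 off the autosomes were left out. Genes and promoter windows came from RefSeq tables of GRCh38.p14, which gives hg38 its chromosome coordinates. The 15 gene lists had 320 entries, of which 314 matched autosomal protein-coding genes. Fisher's exact tests were two-sided, with conditional odds ratios and Benjamini-Hochberg adjustment over 4 (Python 3.11.15, SciPy 1.17.1); the code was tested on simulated data. An AP-1 test and a motif panel at all summits had been planned; genome sequence was not used here, so promoter windows, 1 per gene at a listed start, replaced them. The members and lists were chosen with earlier results of these data known. Genes were named by rule: the 12 highest fold enrichments, the 10 highest near a gene end, the 5 farthest from and 5 nearest to JUNB, the 3 widest and 3 narrowest, the 5 genes with most regions (7 with ties), list genes, and the 3 on each side of the threshold. The 39 regions of highest −log10 p and the promoter examples were chosen after their values were seen.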

Additional observations from a re-analysis of the deposited data

How the results depend on the processing

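No paired analysis was possible because each factor had 1 deposited list for its 3 libraries, and for the same reason no replicate could be left out. P-values are from Fisher's exact test, unadjusted. The share far from genes kept an odds ratio of 1.12 to 1.74, past the threshold, in 10 alternatives, and fell short with −log10 p between 65 and 130 (1.04, exact p = 0.547). The share near gene ends had odds ratios above 1 at a fold enrichment of at least 10 (1.27), at −log10 q of at least 50 (1.0025) and at −log10 p of 65 to 130 (1.0087), none past the threshold, and 0.719 (exact p = 0.0337) between 8.7 and 10. The share inside genes had 0.968 at a fold enrichment of at least 10 and 1.09 (exact p = 0.0457) with all annotated genes. Promoter windows with AP-1, whose test and settings were chosen after seeing the data, had an odds ratio of 0.433 (exact p = 0.0341) at −log10 q of at least 50 and 0.368 (exact p = 0.0210) without chromosomes 4 and 6. The causes were not tested. The other 11 settings gave 0.425 to 0.743. At a fold enrichment of at least 10 there were 1207 regions without JUNB, at least 8 gave 4121, a reciprocal overlap of 50% gave 4197 and no JUNB within 1 kb gave 2759. Within 50 kb, 2823 genes had a region. The AP-1 and motif tests at all summits were not run. Depth is unknown, so a region without JUNB is one with no listed JUNB region, not one shown to lack JUNB.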
